A study of Mus musculus with 8 samples.

Results

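DNA replication and deoxynucleotide synthesis genes were followed through retinal development in 8 RNA sequencing libraries from mouse. The set was chosen by name, as genes that encode the machinery that copies chromosomes or the enzymes that make its building blocks, a rule that uses no measured value, although the list was drawn up with earlier results of these data known. Of 46 symbols listed, 45 were among the 21827 genes of the tables, and Orc1l, an older name of Orc1, was not. Libraries came from whole retinas at embryonic days 15 and 18 (E15 and E18) and from cells sorted at postnatal days 2, 5, and 8 (P2, P5, and P8) with an antibody against Cd73, a surface enzyme of the photoreceptor lineage. Cells that bound the antibody form the Cd73PC fraction, and those that did not form the Cd73NC fraction. Per the study, both fractions of a stage came from the same retinal samples. All retinas were from ICR mice (slc:ICR), the labels name no treatment or engineered allele, and retinas were pooled before sorting. There was 1 library per condition, so no value has a replicate error, no difference was tested, and each comparison describes a pair of libraries.

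Before a cell divides, its origins of replication are bound by the origin recognition complex, and Cdc6 and Cdt1 then load the Mcm2 to Mcm7 ring, the inactive form of the replicative helicase. In S phase, kinases together with Cdc45, the GINS complex, and Mcm10 turn the ring into a moving helicase, primase and the DNA polymerases copy both strands behind it, Pcna holds the polymerases on DNA, Fen1 and Lig1 join the pieces of the lagging strand, and RPA coats single strands. Ribonucleotide reductase, thymidylate synthase, and thymidine kinase supply the deoxynucleotides. Most of these genes are targets of the E2F factors and are strongly expressed in dividing cells. In the mouse retina, progenitors divide until the first postnatal days, many rods are born around birth, and rods do not divide.

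Expression is given as FPKM, a count of fragments scaled to exon length and to library size, which allows levels of genes to be set side by side. Differences are of log2(FPKM + 1), a scale that understates changes of weakly expressed genes, and a gene was called higher or lower past 1.5-fold (0.58 on this scale). The depth of the libraries relative to E18, read from the steps of the lowest values, ranged from 0.965 in E15 to 1.62 in P2 Cd73PC, and absolute depth is unknown. Nt5e, which encodes Cd73, was at 2.43, 31.4, and 9.38 FPKM in Cd73NC and at 97.3, 131, and 124 FPKM in Cd73PC at P2, P5, and P8. The summed level of 7 rod markers ranged from 63.9 to 876 FPKM over the Cd73NC libraries and from 3250 to 12636 FPKM over the Cd73PC libraries. All 7 were at or above 1 FPKM in each Cd73PC library and in P5 and P8 Cd73NC, and 4 were in P2 Cd73NC. Summed levels of 7 progenitor markers, of which Ccnd1 is also a gene of G1 to S control, ranged from 163 to 1683 FPKM in Cd73NC and from 32.5 to 419.8 FPKM in Cd73PC, and were 2123 FPKM at E15 and 1824 FPKM at E18. Endothelial markers (5 genes) ranged from 73.1 to 169 FPKM in Cd73NC and from 13.2 to 36.8 FPKM in Cd73PC, sums made up mostly of Kdr and Cldn5. At P5, Pecam1, Cdh5, and Tie1, also endothelial, were at 0.813, 1.13, and 0.940 FPKM in Cd73NC and at 1.46, 2.41, and 1.81 FPKM in Cd73PC. Erythroid markers (5 genes) ranged from 133 to 7007 FPKM in Cd73NC and from 40.2 to 2764 FPKM in Cd73PC. Of the other lists, Müller glia markers (5 genes) ranged from 601 to 1178 FPKM in Cd73NC and from 294 to 360 FPKM in Cd73PC, bipolar markers (5 genes) from 4.90 to 613 and from 11.9 to 74.7 FPKM, cone markers (5 genes) from 57.0 to 144 and from 109 to 146 FPKM, and amacrine markers (3 genes) from 11.8 to 45.01 and from 51.2 to 73.1 FPKM. Most of the amacrine sum in Cd73PC was Slc6a9 (47.9, 72.3, and 50.7 FPKM at P2, P5, and P8), while Gad1 and Slc32a1 were at 5.47 and 15.96 FPKM in P2 Cd73NC and at 1.29 and 3.62 FPKM in P2 Cd73PC, and their Cd73PC values were below those of Cd73NC at P5 and P8 too. Microglia markers (5 genes) ranged from 5.88 to 115 and from 28.9 to 90.4 FPKM, and horizontal (4 genes) and ganglion cell markers (5 genes) were under 11 FPKM in every sorted library. Grm6, a defining bipolar marker, was at 0 at E18 and in P2 Cd73NC, and Opn1mw, Lhx1, and Pou4f2 were at 0 in P2 Cd73NC, P8 Cd73NC, and P8 Cd73PC. The part of these cells in the results was not tested, and in these bulk samples fewer dividing cells and less RNA per cell cannot be told apart.

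Replication genes were high in whole embryonic retina and in P2 Cd73NC, and lower in Cd73PC at every postnatal stage and in Cd73NC from P5. Their median level was 29.7 FPKM at E15, 34.2 at E18, and 31.2 in P2 Cd73NC, against 13.3 in P2 Cd73PC. At P5 the median was 10.6 FPKM in Cd73NC and 6.04 in Cd73PC, and at P8 it was 6.996 and 3.88 FPKM. The median over all genes was 2.78 FPKM at E18, 2.11, 2.09, and 2.17 FPKM in Cd73NC, and 1.69, 1.30, and 1.17 FPKM in Cd73PC at P2, P5, and P8. All 45 members were above 0 in all 8 libraries. None was under 1 FPKM at E15, E18, or in P2 Cd73NC, but 6 were in P8 Cd73NC and 11 in P8 Cd73PC. The highest level was in P2 Cd73NC for 28 members, at E18 for 12, at E15 for 3, and in P8 Cd73NC for Orc3 and Rpa1. The lowest was in P8 Cd73PC for 31 members and in P8 Cd73NC for 9.

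**Figure D1:**
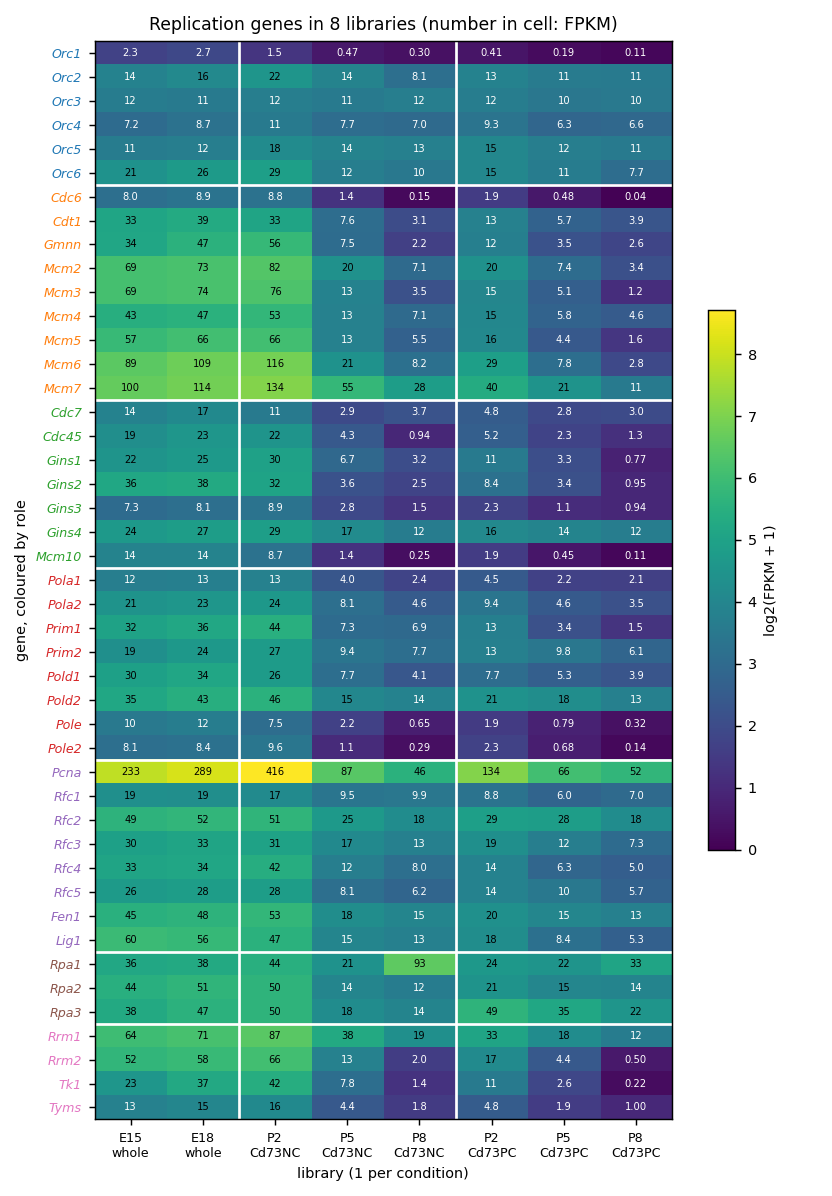
Colour shows log2(FPKM + 1) of 45 replication and deoxynucleotide synthesis genes (vertical axis, names coloured by role) in 8 libraries (horizontal axis, 1 per condition), and the number in each cell is the FPKM. Levels are highest in the columns for E15, E18, and P2 Cd73NC, and the median reaches 3.88 FPKM in P8 Cd73PC, where Cdc6, Mcm10, Orc1, Pole2, and Tk1 are darkest.

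From P2 Cd73NC, where most members peaked, to P8 Cd73PC, the fall differed by orders of magnitude between members. In P8 Cd73PC, 14 members were under 5% of their FPKM in P2 Cd73NC, 14 were at 5 to 20%, 13 were above 20% and up to 50%, and 4 were above 50%. The 2 libraries differ in both stage and fraction, and shares of all genes in these bands were not counted. The median FPKM over all genes in P8 Cd73PC was 55.2% of that in P2 Cd73NC, and the median of the members was 12.5%. Cdc6 (0.411%), Tk1 (0.530%), and Rrm2 (0.762%) kept the least, and Orc3 (86.0%), Rpa1 (74.9%), Orc5 (62.3%), and Orc4 (60.7%) the most. The smallest shares rest on values under 1 FPKM and are uncertain. Within the P8 Cd73PC library, Cufflinks gave bounds of 0 and 0.0844 FPKM for Cdc6 and of 0.0381 and 0.381 FPKM for Tk1. By role, the median share was 54.8% for origin recognition, 44.5% for single-strand binding, 22.0% for the clamp, its loader, and strand joining, 14.7% for polymerases and primase, 6.02% for origin firing, 4.13% for origin licensing, and 3.42% for deoxynucleotide synthesis.

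Because many members moved together, their promoters were searched for words that cell cycle factors are known to bind. RefSeq windows on GRCm38.p6, from 250 bases before to 50 bases after a transcript start, were held for 37 of the 45 members. The E2F words TTTGGCGC, TTTCCCGC, TTTCGCGC, and TTTGCCGC, on either strand, were present for 14 of the 37 members (37.8%), beside 499 of the 15166 genes of the tables with a window (3.29%). Among origin licensing genes 6 of 7 held one (85.7%), and among deoxynucleotide synthesis genes 0 of 4. CCAAT, the word of factor NF-Y, was present for 62.2% of members and 42.5% of all genes, and TTTGAA or TTCGAA, a word common in mitotic promoters, for 21.6% and 19.4%. E2F words can overlap each other on opposite strands. Shown here, 5′ to 3′ along the gene's strand with E2F words in capitals, are the licensing genes Cdc6 (chr11:98907901-98908200, plus strand), Mcm3 (chr1:20820263-20820562, minus strand), Mcm5 (chr8:75109259-75109558, plus strand), and Mcm6 (chr1:128359656-128359955, minus strand), which fell steeply, Orc3 (chr4:34614893-34615192, minus strand), which holds a word and hardly differed between libraries, and Rrm2 (chr12:24708004-24708303, plus strand), which holds none and fell steeply.
Cdc6: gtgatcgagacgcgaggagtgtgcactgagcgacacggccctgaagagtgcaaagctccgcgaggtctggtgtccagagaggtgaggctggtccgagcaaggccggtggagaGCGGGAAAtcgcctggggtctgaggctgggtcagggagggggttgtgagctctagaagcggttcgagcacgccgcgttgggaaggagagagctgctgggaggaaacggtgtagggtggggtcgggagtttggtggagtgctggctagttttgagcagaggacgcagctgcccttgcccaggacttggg
Mcm3: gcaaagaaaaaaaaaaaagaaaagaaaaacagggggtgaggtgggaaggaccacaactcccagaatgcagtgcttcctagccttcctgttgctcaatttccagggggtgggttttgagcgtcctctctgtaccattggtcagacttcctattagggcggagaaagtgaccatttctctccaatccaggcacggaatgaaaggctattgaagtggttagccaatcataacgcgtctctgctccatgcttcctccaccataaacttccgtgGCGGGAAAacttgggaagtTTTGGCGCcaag
Mcm5: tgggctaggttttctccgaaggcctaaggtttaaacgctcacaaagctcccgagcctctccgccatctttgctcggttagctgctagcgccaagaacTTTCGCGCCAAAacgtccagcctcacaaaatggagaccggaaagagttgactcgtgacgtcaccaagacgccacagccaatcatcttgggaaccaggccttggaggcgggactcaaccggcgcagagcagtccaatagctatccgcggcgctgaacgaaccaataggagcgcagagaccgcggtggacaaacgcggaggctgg
Mcm6: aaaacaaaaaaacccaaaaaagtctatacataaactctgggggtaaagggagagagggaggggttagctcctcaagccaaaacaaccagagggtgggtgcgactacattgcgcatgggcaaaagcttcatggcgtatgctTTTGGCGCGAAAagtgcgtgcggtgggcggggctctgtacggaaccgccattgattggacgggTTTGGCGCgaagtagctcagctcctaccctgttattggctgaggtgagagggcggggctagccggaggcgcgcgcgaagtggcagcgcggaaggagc
Orc3: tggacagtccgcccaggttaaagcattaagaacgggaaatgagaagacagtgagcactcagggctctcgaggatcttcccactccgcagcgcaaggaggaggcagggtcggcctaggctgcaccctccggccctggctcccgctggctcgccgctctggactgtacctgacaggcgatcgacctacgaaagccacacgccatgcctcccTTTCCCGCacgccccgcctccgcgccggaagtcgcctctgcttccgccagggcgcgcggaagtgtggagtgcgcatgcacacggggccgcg
Rrm2: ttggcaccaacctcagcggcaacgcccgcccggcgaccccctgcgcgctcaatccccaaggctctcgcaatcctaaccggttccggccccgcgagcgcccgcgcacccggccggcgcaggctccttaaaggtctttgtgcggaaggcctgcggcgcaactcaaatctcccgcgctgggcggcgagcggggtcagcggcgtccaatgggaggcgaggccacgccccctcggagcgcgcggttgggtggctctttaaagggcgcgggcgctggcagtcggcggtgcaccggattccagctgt
Cdc6 and Orc3 had 1 word each, Mcm3 had 2 apart from each other, Mcm5 had 2 that overlapped on opposite strands, and Mcm6 had 3, of which the first pair overlapped in the same way. Members with an E2F word kept a median of 9.30% of their P2 Cd73NC level in P8 Cd73PC (0.411 to 86.0%, 14 genes), and members without one kept 20.6% (0.530 to 74.9%, 23 genes), so the ranges overlapped almost wholly. A word match is a description of the sequence, and occupancy by any factor was not measured here.

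**Figure D2:**
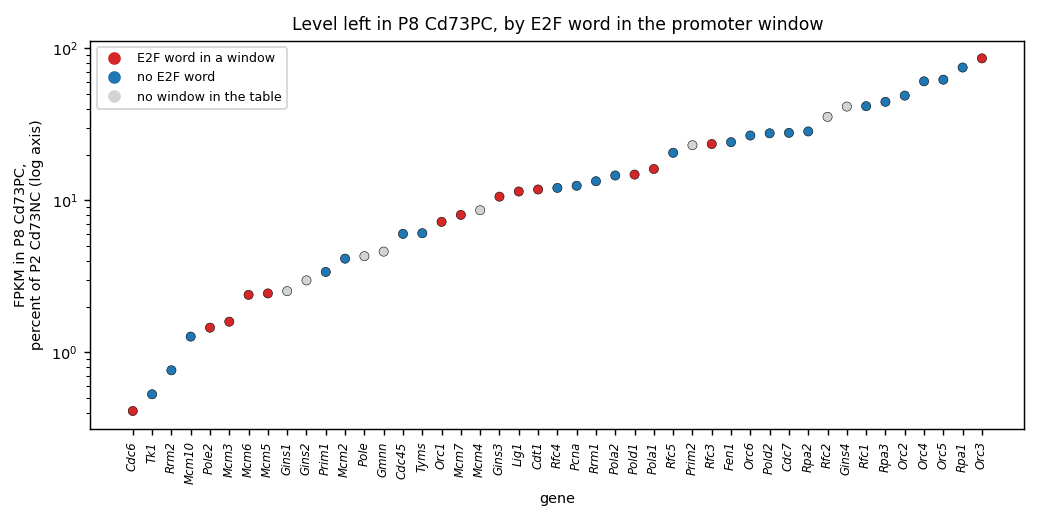
Each point is 1 gene, ordered by its FPKM in P8 Cd73PC as a percent of that in P2 Cd73NC (vertical axis, log scale), with red for an E2F word in its promoter window, blue for none, and grey for no window in the table. Red and blue points mix from Cdc6 at 0.411% to Orc3 at 86.0%.

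Whether rod-lineage cells at P2 already differed from the remaining cells was read from Cd73PC against Cd73NC. At P2, 41 of 45 members (91.1%) were lower in Cd73PC and 0 were higher, with a median difference of -1.38. Of all genes, 14.4% were lower and 8.56% higher, and among genes that reached 1 FPKM in a library 23.3% were lower. The members not called were Orc3, Orc4, Orc5, and Rpa3. At P5, 22 members (48.9%) were lower and Rpa3 alone was called higher, with a median of -0.58, where 15.5% of all genes were lower and 7.02% higher, and 25.1% of genes that reached 1 FPKM were lower. Quantile normalization lowered the P5 count to 10, beside 10.9% of all genes, and brought the median of the members to -0.25. At P8, 14 members (31.1%) were lower and Rpa3 was again the single one called higher, with a median of -0.29. On this scale that share lay near the 29.6% of genes that reached 1 FPKM, while 18.6% of all genes were lower and 7.54% higher. With a pseudocount of 0.1, 23 members were lower at P8, beside 28.0% of all genes. The share of genes that reached 1 FPKM was not counted with that pseudocount. Under quantile normalization the P8 split changed from 14 lower and 1 higher to 9 lower and 5 higher, and the median was 0.02. Of all genes, 12.6% were then lower and 12.2% higher. The 3 comparisons use different libraries, and 11 members were lower at all 3 stages, namely Mcm2, Mcm3, Mcm5, Mcm6, Mcm7, Gins1, Prim1, Lig1, Rrm1, Rrm2, and Tk1, where 7.83% of all genes were. Another 11 were lower at P2 and P5 only, 3 at P2 and P8 only, and 16 at P2 only. Shares of all genes with these partial patterns were not counted.

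**Figure D3:**
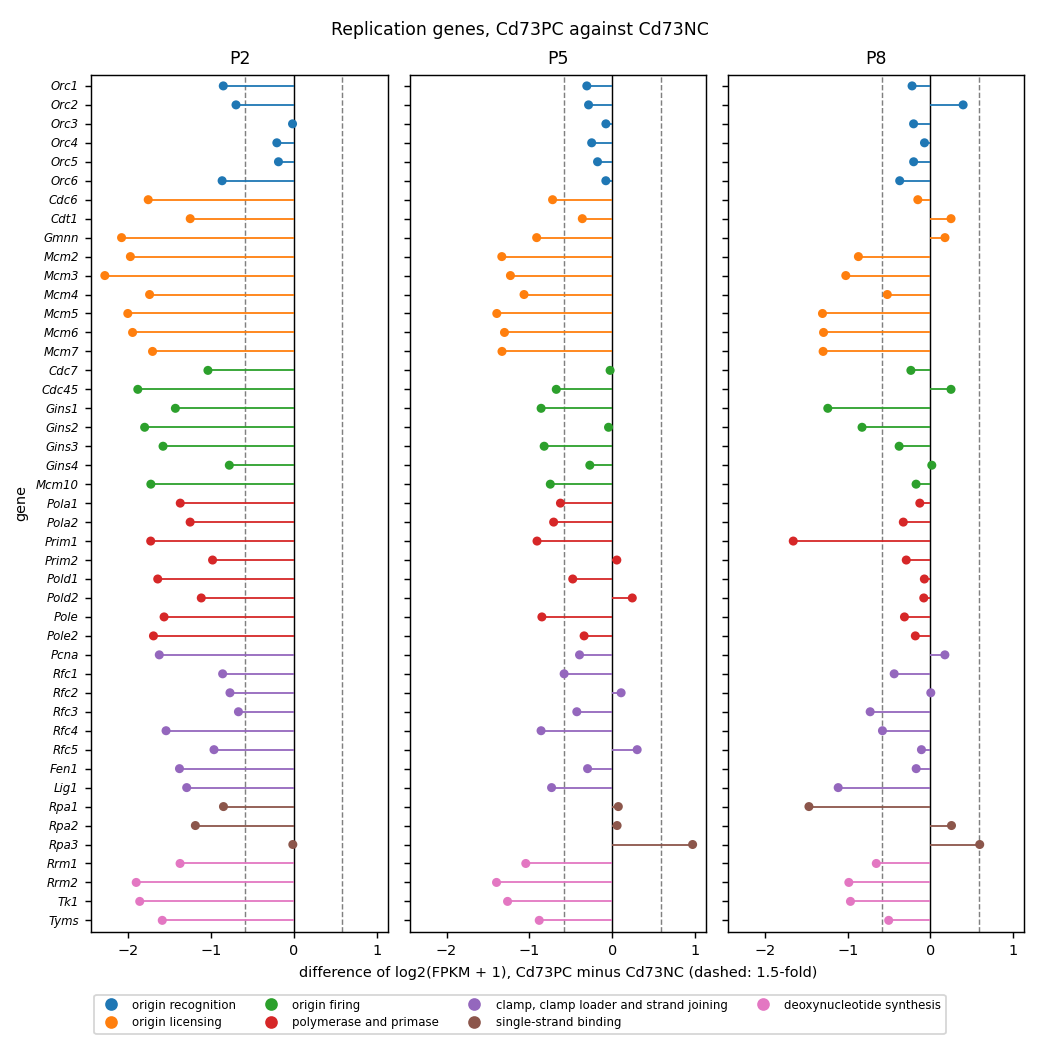
Points give the difference of log2(FPKM + 1), Cd73PC minus Cd73NC (horizontal axis), of each gene (vertical axis, coloured by role) at P2, P5, and P8, and dashed lines mark 1.5-fold. At P2, 41 of 45 points lie beyond the left dashed line, and at P8 14 do, among them Mcm2, Mcm3, Mcm5, Mcm6, and Mcm7.

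The embryonic and time comparisons share libraries with those between fractions and are given as separate descriptions. From E15 to E18, 1 member was higher and 0 were lower, where 4.61% of all genes were higher and 2.09% lower, and the member was Tk1 (22.6 to 36.9 FPKM, difference 0.68). From E18 whole retina to P2 Cd73NC, 1 member was called lower (Mcm10, -0.61) and 0 higher, where 8.2% of all genes were lower and 3.2% higher. From E18 to P2 Cd73PC, 40 members were lower and 0 higher, where 18.3% were lower and 8.78% higher, and Orc2, Orc3, Orc4, Orc5, and Rpa3 were not called. The level of replication genes in P2 Cd73NC thus lay near that of embryonic retina, and that in P2 Cd73PC did not.

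In Cd73NC, 42 of 45 members were lower at P5 than at P2 and 0 were higher, with a median of -1.61, where 9.51% of all genes were lower and 7.93% higher. Orc3, Orc4, and Orc5 were the 3 not called. From P5 to P8 in Cd73NC, 22 were lower, median -0.58, and Rpa1 was higher, where 7.78% of all genes were lower and 8.47% higher. Those 22 were all among the 42 called at the step before. In Cd73PC, which started from lower levels, 28 members were lower at P5 than at P2 and 0 were higher, median -0.85, where 8.57% of all genes were lower and 3.36% higher. From P5 to P8 in Cd73PC, 15 were lower and 0 higher, median -0.47, where 4.78% of all genes were lower and 3.31% higher. In Cd73PC, 11 members were called at both steps, 17 at the first alone, 4 at the second alone, and 13 at neither. Shares of all genes called at both steps or at 1 alone were not counted. The same progenitor markers had summed levels of 1683, 502, and 163 FPKM in Cd73NC at P2, P5, and P8, and of 419.8, 137, and 32.5 FPKM in Cd73PC. Rod markers summed to 63.9, 876, and 857 FPKM and erythroid markers to 133, 2009, and 7007 FPKM in Cd73NC at the same stages. The part of these cells in the fall of the replication genes was not tested.

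Origin recognition genes kept the largest median share of their level of the 7 roles. The counts between fractions are read here against the shares of all genes lower in Cd73PC, 14.4%, 15.5%, and 18.6% at P2, P5, and P8, and against those of genes that reached 1 FPKM, 23.3%, 25.1%, and 29.6%. Of 6 members, 3 were lower in Cd73PC at P2 (Orc1, Orc2, and Orc6) and 0 at P5 and P8, below the share of all genes, with medians of -0.45, -0.21, and -0.20. Orc3, a subunit of the core complex, was at 11.5 FPKM at E15, 11.1 at E18, 12.1, 10.6, and 12.1 in Cd73NC at P2, P5, and P8, and 12.0, 10.01, and 10.4 in Cd73PC. All 8 libraries lay within a narrow range for this gene. Orc1, the subunit whose level is known to cycle, was at 2.27 FPKM at E15 and 2.73 at E18, at 1.54, 0.472, and 0.297 in Cd73NC, and at 0.408, 0.190, and 0.111 in Cd73PC. It was the lowest Orc gene in every library. In Cd73PC, Orc1 was at 40.3% and 37.5% of its Cd73NC FPKM at P5 and P8. It was not called there, since the scale understates changes of weakly expressed genes. Orc6, a loosely bound subunit, was at 20.7 and 25.9 FPKM in embryonic retina, at 28.9, 12.2, and 10.3 in Cd73NC, and at 15.4, 11.5, and 7.73 in Cd73PC. The ratio of the highest to the lowest Orc gene widened from 9.12 at E15 to 98.1 in P8 Cd73PC. The last ratio is uncertain, since it rests on Orc1 at 0.111 FPKM, with Cufflinks bounds of 0.0347 and 0.191. Orc2 stood at 22.3 FPKM in P2 Cd73NC and 10.9 in P8 Cd73PC, Orc4 at 10.9 and 6.60, and Orc5 at 17.6 and 10.9. Rows of other genes overlap Orc3, Orc4, and Orc5, and since the library preparation described does not mark strand, part of their reads could belong to Akirin2, Acvr2a, and Gm15421.

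Licensing genes had the most negative medians of the 7 roles at all 3 stages. All 9 were lower in Cd73PC at P2 (median -1.95), 8 at P5 (88.9%, median -1.23), and 5 at P8 (55.6%, median -0.87), beside 14.4%, 15.5%, and 18.6% of all genes. Cdc6, the ATPase that loads the helicase (mm9 chr11:98769203-98785256, plus strand), was at 8.05 FPKM at E15 and 8.87 at E18, at 8.80, 1.44, and 0.152 in Cd73NC at P2, P5, and P8, and at 1.89, 0.479, and 0.0362 in Cd73PC. The bounds that Cufflinks gave for the last value, which describe the estimate within the library, were 0 and 0.0844 FPKM. Cdt1, the partner of Cdc6 in loading, was at 33.4 and 38.9 FPKM in embryonic retina, at 32.9, 7.56, and 3.11 in Cd73NC, and at 13.3, 5.67, and 3.88 in Cd73PC. Its 2 fractions were called apart at P2 (-1.25) and not at P5 (-0.36) or P8 (0.25). Gmnn (geminin), the inhibitor that blocks Cdt1 after S phase has begun, was at 34.3 and 46.8 FPKM, at 55.6, 7.51, and 2.15 in Cd73NC, and at 12.4, 3.52, and 2.56 in Cd73PC. In P2 Cd73NC geminin stood 1.69 times as high as Cdt1 in FPKM, and in P8 the ratio was 0.692 in Cd73NC and 0.659 in Cd73PC. At E15, at E18, and in P2 Cd73NC geminin lay above its own upper Cufflinks bound. That bound was 50.8 FPKM in P2 Cd73NC, so the ratio there is uncertain.

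Helicase genes Mcm2 to Mcm7 were all lower in Cd73PC at P2 and P5, and 5 of 6 were at P8 (83.3%), with medians of -1.96, -1.32, and -1.16. Of all genes, 14.4%, 15.5%, and 18.6% were lower at P2, P5, and P8. Mcm2 was at 68.9 FPKM at E15 and 73.3 at E18, at 82.5, 20.1, and 7.06 in Cd73NC at P2, P5, and P8, and at 20.2, 7.38, and 3.41 in Cd73PC. Mcm3 (mm9 chr1:20793095-20810294, minus strand) was at 69.1 and 73.6 FPKM in embryonic retina, at 75.8, 13.4, and 3.48 in Cd73NC, and at 14.8, 5.15, and 1.21 in Cd73PC. Its fall of log2(FPKM + 1) from P2 Cd73NC to P8 Cd73PC was the largest of its role. Cdc6 kept a smaller share of its FPKM. Mcm4 was at 43.3 and 46.5 FPKM, at 53.5, 13.2, and 7.05 in Cd73NC, and at 15.3, 5.78, and 4.61 in Cd73PC. Mcm4 was the one subunit not called at P8 (-0.52), although its direction was the same. Mcm5 was at 57.0 and 65.7 FPKM, at 66.3, 13.1, and 5.47 in Cd73NC, and at 15.7, 4.37, and 1.62 in Cd73PC. Mcm6 was at 89.4 and 109 FPKM, at 116, 20.6, and 8.25 in Cd73NC, and at 29.4, 7.77, and 2.78 in Cd73PC. Mcm7, whose row also hosts the microRNAs Mir25, Mir93, and Mir106b, was at 99.9 and 114 FPKM, at 134, 54.7, and 27.8 in Cd73NC, and at 40.3, 21.1, and 10.7 in Cd73PC. In every library Mcm7 was the highest of the 6. The proteins form a ring with 1 copy of each, and the ratio of the highest to the lowest transcript was 2.31 at E15, 2.50 in P2 Cd73NC, 4.17 in P5 Cd73NC, 7.99 in P8 Cd73NC, and 8.90 in P8 Cd73PC. Over Mcm2 to Mcm6 the ratio was 2.07 at E15, 2.17, 1.57, and 2.37 in Cd73NC at P2, P5, and P8, and 1.99, 1.78, and 3.82 in Cd73PC.

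**Figure D4:**
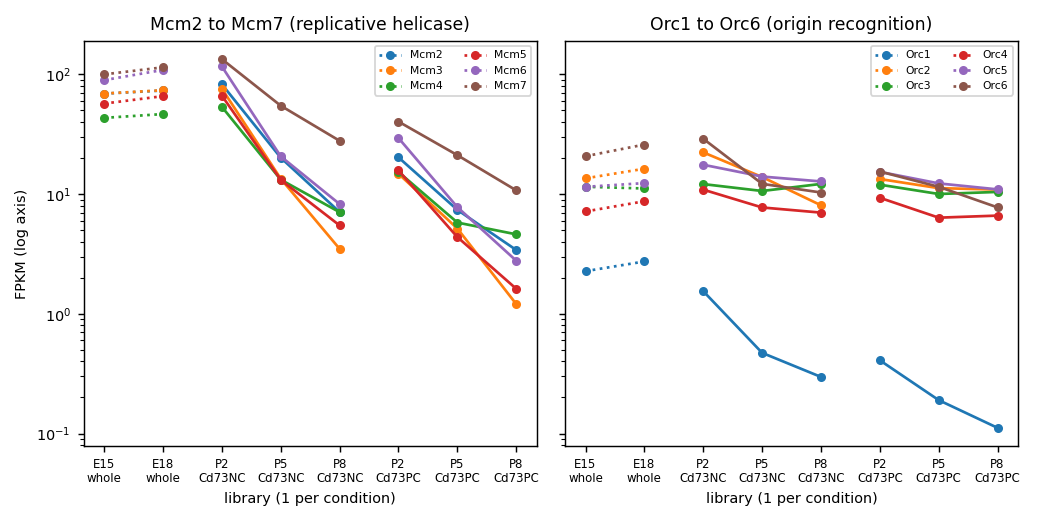
Lines give the FPKM (vertical axis, log scale) of the 6 helicase subunits (left) and the 6 origin recognition subunits (right) in 8 libraries (horizontal axis, 1 per condition, lines joined within whole retina, Cd73NC, and Cd73PC). Mcm genes span 2.31-fold at E15 and 8.90-fold in P8 Cd73PC with Mcm7 on top (2.07-fold and 3.82-fold without it), and Orc3, Orc4, and Orc5 run nearly level while Orc1 falls to 0.111 FPKM.

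Firing genes were lower in Cd73PC for 7 of 7 members at P2 (median -1.58), 4 at P5 (57.1%, median -0.68), and 2 at P8 (28.6%, median -0.24), the last near the 29.6% of genes that reached 1 FPKM. Of all genes, 14.4% were lower at P2 and 15.5% at P5. Cdc45, which rides with the helicase, was at 18.9 FPKM at E15 and 22.8 at E18, at 21.7, 4.34, and 0.944 in Cd73NC, and at 5.15, 2.35, and 1.31 in Cd73PC. By P8 its fractions were not called apart (0.25). Mcm10, a factor that activates the loaded helicase, was at 13.9 and 13.8 FPKM, at 8.75, 1.44, and 0.253 in Cd73NC, and at 1.94, 0.450, and 0.111 in Cd73PC. It was the only member called lower in P2 Cd73NC than at E18, and with a pseudocount of 0.1 there were 4. Of all genes, 8.2% were lower in that comparison with a pseudocount of 1 and 16.6% with 0.1. The GINS complex, the third part of the active helicase, was split. Gins1 was at 21.9 and 24.8 FPKM, at 30.3, 6.71, and 3.18 in Cd73NC, and at 10.6, 3.25, and 0.767 in Cd73PC. Gins4 was at 24.5 and 27.5 FPKM, at 28.5, 17.3, and 11.7 in Cd73NC, and at 16.2, 14.1, and 11.8 in Cd73PC. The 2 subunits were close in P2 Cd73NC, and in P8 Cd73PC the highest GINS gene was 15.4 times the lowest. Gins2 kept 2.97% and Gins3 10.6% of their P2 Cd73NC level in P8 Cd73PC, and Cdc7, the kinase that triggers firing, kept 27.8%. The row of Gins2 overlaps Gse1.

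Polymerase and primase genes were lower in Cd73PC for 8 of 8 members at P2 (median -1.47), 4 at P5 (median -0.55), and 1 at P8 (12.5%, median -0.24), the last below the 18.6% of all genes. At P2 and P5, 14.4% and 15.5% of all genes were lower. Pola1, the catalytic subunit of the priming polymerase alpha, was at 12.3 FPKM at E15 and 12.6 at E18, at 13.2, 4.01, and 2.42 in Cd73NC, and at 4.501, 2.25, and 2.13 in Cd73PC. Prim1, the catalytic primase subunit, was at 31.6 and 36.0 FPKM, at 44.1, 7.32, and 6.86 in Cd73NC, and at 12.6, 3.43, and 1.49 in Cd73PC. It was the member still called at P8, with a difference of -1.66, the largest of all 45 members at that stage. Its partner Prim2 kept 23.1% of the P2 Cd73NC level in P8 Cd73PC, beside 3.38% for Prim1. Pole, the catalytic subunit of the leading-strand polymerase epsilon, was at 10.4 and 11.8 FPKM, at 7.54, 2.22, and 0.646 in Cd73NC, and at 1.88, 0.788, and 0.324 in Cd73PC, and its accessory subunit Pole2 kept 1.45%. Pold2, an accessory subunit of the lagging-strand polymerase delta, was at 35.3 and 42.8 FPKM, at 46.4, 15.2, and 13.6 in Cd73NC, and at 20.8, 18.2, and 12.8 in Cd73PC. It changed least of the 8, and its row overlaps Aebp1, so its reads are uncertain. Pold1, the catalytic subunit of delta, kept 14.8%, and Pola2 14.6%.

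Genes of the clamp, its loader, and strand joining were lower in Cd73PC for 8 of 8 members at P2 (median -1.13) and for 2 at P5 (Rfc4 and Lig1) and 2 at P8 (Rfc3 and Lig1). At P2, 14.4% of all genes were lower, and 23.3% of those that reached 1 FPKM. The share of 2 in 8 at P5 and P8 lay near the 25.1% and 29.6% of genes that reached 1 FPKM. Pcna, the sliding clamp (mm9 chr2:132075022-132078916, minus strand), was at 233 FPKM at E15 and 289 at E18, at 416, 87.0, and 45.9 in Cd73NC, and at 134, 65.9, and 51.9 in Cd73PC. It was the highest member in 7 of 8 libraries, and in P8 Cd73NC Rpa1 was higher. Reads of Pcna could be shared with its pseudogenes, since reads with up to 50 places in the genome were kept. In every library Pcna lay above its own upper Cufflinks bound, which was 362 FPKM in P2 Cd73NC. Fen1, the nuclease that trims the pieces of the lagging strand, was at 45.4 and 48.5 FPKM, at 53.4, 18.4, and 14.7 in Cd73NC, and at 19.9, 14.8, and 12.9 in Cd73PC. Lig1, the ligase that seals them, was at 60.0 and 56.3 FPKM, at 46.5, 14.6, and 12.7 in Cd73NC, and at 18.4, 8.36, and 5.32 in Cd73PC. Lig1 was called lower in Cd73PC at all 3 stages (-1.30, -0.73, and -1.12), and Fen1 at P2 alone. Rfc1, the large subunit of the clamp loader, was at 19.1 and 18.8 FPKM, at 16.9, 9.53, and 9.89 in Cd73NC, and at 8.84, 6.04, and 7.04 in Cd73PC. The ratio of the highest to the lowest of Rfc1 to Rfc5 stayed between 2.55 and 4.55 in all 8 libraries, with Rfc2 on top throughout. Rows of Rfc4 and Lig1 overlap other rows (Eif4a2 and 6330408A02Rik).

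Of 3 single-strand binding genes, 2 were lower in Cd73PC at P2 (66.7%), 0 were lower and 1 higher at P5, and 1 was lower (Rpa1) and 1 higher at P8 (33.3% each), beside 14.4%, 15.5%, and 18.6% of all genes lower. All 3 were lower in Cd73NC at P5 than at P2. Rpa1, Rpa2, and Rpa3 encode the 3 subunits of RPA, which also serves repair, and in P2 Cd73NC they were at 44.0, 49.9, and 49.5 FPKM, a ratio of 1.13 between the highest and the lowest. Rpa2 was at 43.9 FPKM at E15 and 50.5 at E18, at 49.9, 14.5, and 11.7 in Cd73NC at P2, P5, and P8, and at 21.3, 15.1, and 14.2 in Cd73PC. Its fractions were called apart at P2 alone (-1.19). Rpa3 was at 38.5 and 47.3 FPKM, at 49.5, 17.6, and 14.3 in Cd73NC, and at 49.1, 35.5, and 22.0 in Cd73PC, and it was the one member called higher in Cd73PC, at P5 (0.97) and P8 (0.59). In every library Rpa3 lay above its own upper Cufflinks bound, which was 30.2 FPKM in P5 Cd73PC and 19.6 in P8 Cd73PC, so its levels are uncertain. Rpa1 (mm9 chr11:75113761-75161885, minus strand) was at 36.0 and 38.2 FPKM, at 44.0, 20.6, and 92.8 in Cd73NC, and at 23.9, 21.7, and 32.9 in Cd73PC. The value in P8 Cd73NC, with Cufflinks bounds of 90.5 and 96.8 FPKM, stood above every other library, and Rpa1 was the only member called higher from P5 to P8. Its subunit partners were at 11.7 and 14.3 FPKM in that library, so the ratio of highest to lowest was 7.92.

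Deoxynucleotide synthesis genes were lower in Cd73PC for 4 of 4 members at P2 (median -1.73), 4 at P5 (median -1.15), and 3 at P8 (median -0.81), beside 14.4%, 15.5%, and 18.6% of all genes. Rrm1, the large subunit of ribonucleotide reductase, was at 63.6 FPKM at E15 and 70.6 at E18, at 87.5, 37.9, and 19.0 in Cd73NC, and at 33.1, 17.9, and 11.7 in Cd73PC. Rrm2, the small subunit made in S phase (mm9 chr12:25393119-25399011, plus strand), was at 52.0 and 57.7 FPKM, at 65.8, 13.3, and 1.98 in Cd73NC, and at 16.8, 4.44, and 0.501 in Cd73PC. Both fell in both fractions, but unequally: the ratio of Rrm1 to Rrm2 in FPKM was 1.22 at E15 and at E18, 1.33, 2.84, and 9.61 in Cd73NC, and 1.96, 4.02, and 23.3 in Cd73PC. Tk1, the thymidine kinase of dividing cells, was at 22.6 and 36.9 FPKM, at 42.2, 7.75, and 1.39 in Cd73NC, and at 10.9, 2.64, and 0.224 in Cd73PC. Tyms, thymidylate synthase, was at 13.03 and 15.1 FPKM, at 16.4, 4.36, and 1.83 in Cd73NC, and at 4.78, 1.91, and 0.998 in Cd73PC. Tyms was the member not called at P8 (-0.50). The row of Tk1 overlaps Afmid.

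Other genes of replication and the cell cycle, from lists written with earlier results of these data known, were set beside the members and beside the same shares of all genes lower in Cd73PC (14.4%, 15.5%, and 18.6%; 23.3%, 25.1%, and 29.6% of those that reached 1 FPKM). Of 47 other replication genes, 34 were lower in Cd73PC at P2 and 1 higher, 17 and 1 at P5, and 15 and 2 at P8, with medians of -1.07, -0.51, and -0.31. The lower ones were 72.3%, 36.2%, and 31.9% of the list, so that the share at P8 was near that of genes that reached 1 FPKM. Uhrf1, which recruits the maintenance DNA methyltransferase, was at 77.5 FPKM in P2 Cd73NC and 18.7 in P2 Cd73PC, Dtl, which marks Cdt1 for destruction, at 19.3 and 4.10, and Ung, which removes uracil from DNA, at 24.5 and 5.82. Of 37 other nucleotide synthesis genes, 22 were lower at P2 and 3 higher, 13 and 3 at P5, and 15 and 3 at P8 (59.5%, 35.1%, and 40.5% lower), with medians of -0.67, -0.45, and -0.36. The 3 higher at each stage were 8.11% of the list, near the 8.56%, 7.02%, and 7.54% of all genes. The lowest differences at P2 were those of Shmt1 (-1.88) and Mthfd1 (-1.36), which supply one-carbon units, and Prps2 (-1.33), which makes the sugar phosphate of nucleotides. Their list kept a median of 40.9% of the P2 Cd73NC level in P8 Cd73PC, beside 12.1% for the members.

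Mitosis genes were also lower in Cd73PC. At P2 all 36 were, and 34 were at P5 (94.4%) and 14 at P8 (38.9%), beside 14.4%, 15.5%, and 18.6% of all genes, with medians of -1.51, -1.33, and -0.46. Their median level was 39.5 FPKM in P2 Cd73NC, 10.4 in P5 Cd73NC, and 1.99 in P8 Cd73NC, beside 31.2, 10.6, and 6.996 FPKM for the members. From P5 to P8 in Cd73NC, 35 of 36 mitosis genes were lower (median -1.88), and 22 of 45 members were (median -0.58). The difference between the lists was not tested. Mki67, the Ki-67 antigen of cycling cells, was at 40.4 FPKM in P2 Cd73NC and 0.460 in P8 Cd73PC, Nusap1, a spindle protein, at 54.1 and 0.628, and Cdk1, the mitotic kinase, at 52.9 and 0.334. Of 28 genes of G1 to S control, 17 were lower at P2 and 1 higher, 17 and 1 at P5, and 12 and 1 at P8 (60.7%, 60.7%, and 42.9% lower), with medians of -0.85, -0.75, and -0.42. Ccnd1, the cyclin of retinal progenitors, was at 1095 FPKM in P2 Cd73NC, 272 in P2 Cd73PC, and 9.31 in P8 Cd73PC. E2f1, an activator of replication genes, was at 63.9, 18.6, and 1.19 FPKM in the same libraries, and E2f8, a repressor of them, at 15.3, 3.94, and 0.0898 FPKM.

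**Figure D5:**
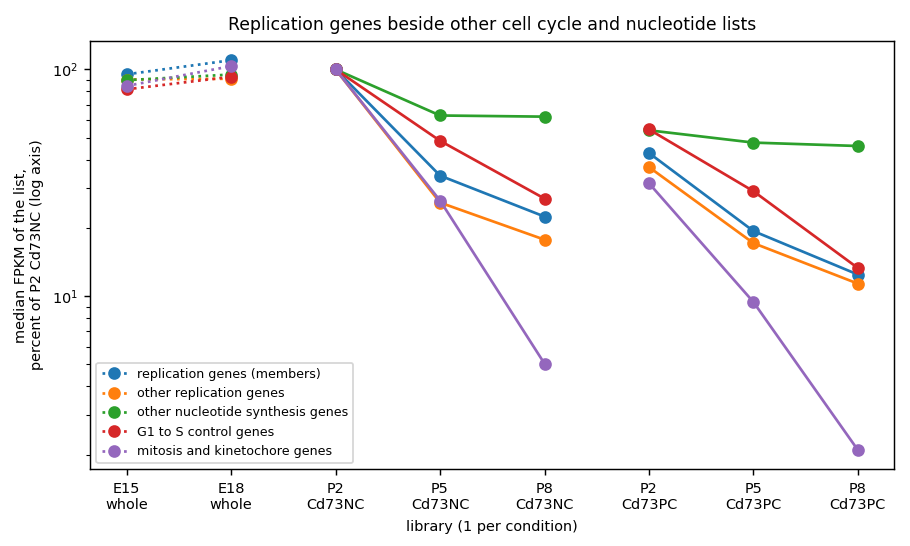
Lines give the median FPKM of 5 gene lists as a percent of their median in P2 Cd73NC (vertical axis, log scale) in 8 libraries (horizontal axis, 1 per condition, lines joined within whole retina, Cd73NC, and Cd73PC). In P8 Cd73PC the line of replication genes reaches 12.5%, that of other nucleotide synthesis genes 46.0%, and that of mitosis genes 2.099%.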

How the data were processed

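Total RNA of 8 mouse retina samples was sequenced by the authors as single-end reads after poly(A) selection, without a strand mark. Per the study's methods and the submitters' processing notes (CASAVA 1.8.2, bcl2fastq 1.8.4, TopHat2 2.0.8b, Cufflinks 2.1.1), reads were aligned to NCBI37/mm9, reads with up to 50 hits were kept, and the authors deposited FPKM values per gene with confidence bounds. FPKM was used as deposited. Read counts were not used here, so absolute depth is unknown, no binomial interval or detection floor is given, and the bounds that Cufflinks gave are printed for single values. Of 360 member values, 54 lay outside their own bounds, among them every value of Pcna and Rpa3.

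Rows of 797 small RNAs were left out, rows of a symbol were summed, and failed rows (4 to 10 per library) were taken as missing, which left 21827 of 23021 rows as genes. All 45 members overlapped the gene of the same symbol in the NCBIM37 annotation, and 9 were overlapped by another row. With 1 library per condition, no test was made: differences of log2(FPKM + 1) were called past 1.5-fold, the threshold of the study, and counts are given beside those over all genes. The members, lists, and markers were chosen with earlier results of these data known, and 1 progenitor marker of the list is not reported here. Levels in all libraries were printed for 22 members chosen by name and, in each role, for those with the largest and smallest change from P2 Cd73NC to P8 Cd73PC. From each other list, up to 3 genes most below and 3 most above 0 at P2 with FPKM of at least 5 were named, and levels of other members were added as examples. Promoter windows came from RefSeq (GRCm38.p6), matched by symbol, and were kept apart from mm9 coordinates. Alternatives were other pseudocounts (0.1, 0.01), a filter for 1 FPKM, upper quartile scaling, quantile normalization, a 2-fold threshold, non-overlapping bounds, and small RNAs kept. Scripts were tested on simulated data and used matplotlib 3.10.9, pandas 2.3.3, and numpy 2.4.6 under Python 3.11.15.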

Additional observations from a re-analysis of the deposited data

How the results depend on the processing

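No called difference of a member between fractions changed sign under any alternative run, and requiring non-overlapping bounds, filtering at 1 FPKM, or keeping small RNAs moved no count of members by over 1.5 times. With a pseudocount of 0.1, 23 members were lower in Cd73PC at P8 (14 with a pseudocount of 1). Further, 4 were lower in P2 Cd73NC than at E18 (1), and 23 were lower in Cd73PC at P8 than at P5 (15). With 0.01 the counts were 23, 4, and 24. Of all genes, 28.0%, 16.6%, and 10.9% were lower in these comparisons with 0.1, and 33.0%, 20.3%, and 14.3% with 0.01. Upper quartile scaling gave 3 members lower in P2 Cd73NC than at E18, where 8.63% of all genes were lower. Quantile normalization gave 10 lower at P5 (22), 9 at P8, and 0 from E18 to P2 Cd73NC, beside 10.9%, 12.6%, and 5.55% of all genes. It turned the P8 median of the members from -0.29 to 0.02. At 2-fold, 9 were lower at P5, 8 at P8, and 0 from E18 to P2 Cd73NC, beside 8.09%, 10.8%, and 2.84% of all genes. In Cd73NC, 10 were lower at P8 than at P5 (22), beside 2.84% of all genes. In Cd73PC, 16 were lower at P5 than at P2 (28) and 7 at P8 than at P5, beside 2.51% and 1.29%. At E18, 0 were higher than at E15 (1), beside 1.56% of all genes. The median over genes that reached 1 FPKM was itself below 0, at -0.13, -0.17, and -0.22 for Cd73PC minus Cd73NC at P2, P5, and P8, and at -0.04, 0.00, and 0.02 after quantile normalization. The study purified both fractions of a stage from the same retinal samples, which gives 1 pair of libraries per stage. A single pair allows no paired test within a stage. A fit over the 3 stages with stage as a block, which asks for a mean difference over stages, was not run, and no library could be left out in turn. Unknown depth limits what can be said of members under 1 FPKM, 11 of them in P8 Cd73PC.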

Other observations

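At each stage 3 of 37 other nucleotide synthesis genes (8.11%) were higher in Cd73PC, near the 8.56%, 7.02%, and 7.54% of all genes. Guk1 and Impdh1, named because they were the most above 0 at P2, ran opposite to the replication genes. Guk1, which makes GDP from GMP, was at 28.0, 53.8, and 89.7 FPKM in Cd73NC at P2, P5, and P8, and at 137, 212, and 212 FPKM in Cd73PC. Impdh1, which catalyses the rate-limiting step of guanine nucleotide synthesis, was at 31.8, 79.0, and 48.1 FPKM in Cd73NC and at 132, 235, and 258 FPKM in Cd73PC. Both were past 1.5-fold higher in Cd73PC at all 3 stages. Tk2, the mitochondrial thymidine kinase, lay between 11.8 and 15.7 FPKM in all 8 libraries and was not called between fractions, while Tk1 ranged from 0.224 to 42.2 FPKM. Among other replication genes, Atrip, a partner of the checkpoint kinase Atr, was higher in Cd73PC at all 3 stages, with 9.83, 11.0, and 11.3 FPKM in Cd73NC and 17.8, 19.6, and 23.0 FPKM in Cd73PC. Among genes of G1 to S control, Ccnd2 was at 0.239 FPKM in P2 Cd73NC and 9.75 in P2 Cd73PC, but at 3.34 and 1.53 FPKM at P5. Cdkn1c and Rb1, which restrain the cycle, were not called between fractions at any stage.

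The genes beside Rpa1 were looked at after its value in P8 Cd73NC was seen. Rtn4rl1, a receptor gene 32497 bases away, was at 22.7 FPKM in P5 Cd73NC and 73.2 FPKM in P8 Cd73NC, and was between 8.73 and 34.3 FPKM in the other 6 libraries. Smyd4, 50 bases from Rpa1 on the opposite side, was at 2.00 and 3.72 FPKM in P5 and P8 Cd73NC. Farther out, Dph1 (109776 bases away) was at 14.9 and 13.2 FPKM and Serpinf1 (61646 bases away) at 2.27 and 1.94 FPKM in the same libraries. Whether the Rpa1 and Rtn4rl1 values in that library share a cause was not tested.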
